A study of Homo sapiens with 16 samples.

Results

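CAMTA1 and CAMTA2 were followed in H3K9me2 ChIP-seq of BJ-5ta cells, a line of human fibroblasts immortalized with telomerase. All 50 windows that the table of transcription start sites (TSS) gives to either gene were taken, each alternative start kept apart, together with every peak region inside CAMTA1. The table held 34 windows for CAMTA1 and 16 for CAMTA2 of 272902 in all, and 7 of 16092 peak regions lay inside CAMTA1 and 0 inside CAMTA2. After windows with repeated coordinates were counted once, 46 of 237274 distinct windows remained (30 for CAMTA1, 16 for CAMTA2), and windows that overlap formed 12 start clusters along CAMTA1 and 5 along CAMTA2, numbered from the upstream end. CAMTA1 was chosen by the difference in wild-type ChIP reads between the serum conditions at one of its downstream starts, so its values in that contrast are given as a description with no test.

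Wild-type and ΔLEO1 cells, the latter a single clone (clone 13) in which CRISPR/Cas9 disrupted LEO1, a subunit of the RNA polymerase II-associated PAF1 complex, were either grown in 10% serum, where they proliferate, or held for 10 days in 0.1% serum, where they become quiescent. Each combination of genotype and serum had ChIP libraries A and B and input libraries A and B, input being the same kind of chromatin sequenced without an antibody. The labels name the antibody only as H3, while the design text of the series names H3K9me2. Nothing states that A and B came from separate cultures, so the p-values measure only the spread between these libraries, which may be technical.

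Replicate A of the ΔLEO1 ChIP in 10% serum was left out throughout, since only 54 of its reads fell in TSS windows and 0 at CAMTA1 or CAMTA2. The other 7 ChIP libraries held 2153836 to 3696942 reads over TSS windows and the 8 inputs 3267811 to 9238282. ΔLEO1 in 10% serum therefore had 1 ChIP library, which is assumed to vary like the other groups in every test that uses it. The start window of LEO1 itself held 16 to 53 input reads in each library, the ΔLEO1 libraries included, so window counts do not check the knockout, and DNA counts do not check the cell type.

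CAMTA proteins are calmodulin-binding transcription activators, which carry a CG-1 DNA-binding domain, ankyrin repeats and IQ motifs that bind calmodulin. CAMTA1 is a very long gene on 1p36, best known from brain, from inherited ataxia and from its fusion to WWTR1 in epithelioid hemangioendothelioma. CAMTA2 is short, acts with NKX2-5 on the NPPA promoter in heart muscle and is held back by class II histone deacetylases. H3K9me2 is laid down by EHMT1 and EHMT2 over broad silent domains and is typically low at active promoters.

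RefSeq places CAMTA1 on the plus strand of chr1:6785454-7769706 (984253 bp) and CAMTA2 on the minus strand of chr17:4967997-4987675 (19679 bp) of GRCh38.p14, and the submitters' processing notes name hg38, the same assembly. One RefSeq start region is shown for each cluster that covers any, to set the first start, the start that chose the gene and a low downstream start of CAMTA1 beside the first start of CAMTA2; where a cluster covers 2 regions, as CAMTA1 cluster 8 and CAMTA2 cluster 1 do, the upstream one was taken. Each runs from 250 bases before to 50 bases after a start, 5′ to 3′ on the gene's strand, and capitals mark CG dinucleotides, the sites of DNA methylation.
CAMTA1 cluster 1, chr1:6785204-6785503: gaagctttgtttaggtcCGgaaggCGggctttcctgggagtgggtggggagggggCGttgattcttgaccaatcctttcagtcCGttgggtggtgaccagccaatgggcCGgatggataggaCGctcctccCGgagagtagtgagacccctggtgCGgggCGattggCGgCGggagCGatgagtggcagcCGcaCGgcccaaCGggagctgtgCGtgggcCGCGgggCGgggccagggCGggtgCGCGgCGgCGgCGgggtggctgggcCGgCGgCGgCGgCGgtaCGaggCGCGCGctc
CAMTA1 cluster 8, chr1:7669480-7669779: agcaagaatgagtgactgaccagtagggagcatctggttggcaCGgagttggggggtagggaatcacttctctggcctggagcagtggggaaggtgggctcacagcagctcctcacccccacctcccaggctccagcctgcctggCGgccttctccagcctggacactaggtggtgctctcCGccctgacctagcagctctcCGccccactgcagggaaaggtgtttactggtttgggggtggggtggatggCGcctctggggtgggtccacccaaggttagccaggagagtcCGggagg
CAMTA1 cluster 9, chr1:7704486-7704785: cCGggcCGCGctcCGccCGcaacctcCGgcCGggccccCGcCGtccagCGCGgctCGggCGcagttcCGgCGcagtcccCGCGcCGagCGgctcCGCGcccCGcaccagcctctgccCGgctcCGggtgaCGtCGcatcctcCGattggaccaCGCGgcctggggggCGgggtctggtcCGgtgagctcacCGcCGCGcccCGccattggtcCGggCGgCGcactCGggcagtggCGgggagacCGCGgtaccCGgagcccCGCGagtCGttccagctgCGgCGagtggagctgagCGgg
CAMTA2 cluster 1, chr17:4987626-4987925: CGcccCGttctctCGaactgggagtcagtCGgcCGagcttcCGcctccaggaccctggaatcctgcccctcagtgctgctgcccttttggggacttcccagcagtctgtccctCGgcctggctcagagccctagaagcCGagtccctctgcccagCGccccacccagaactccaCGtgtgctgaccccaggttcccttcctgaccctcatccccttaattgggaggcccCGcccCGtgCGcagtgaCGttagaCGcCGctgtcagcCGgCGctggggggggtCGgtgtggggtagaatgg
The regions in CAMTA1 clusters 1 and 9 held 34 and 49 CG dinucleotides, more than 84.4% and 98.4% of the 35116 RefSeq start regions of this length, whose median was 14. The regions shown for CAMTA1 cluster 8 and CAMTA2 cluster 1 held 6 and 19, and the second regions of these clusters, not shown, held 7 and 38, the last more than 90.1% of start regions. The GC box GGGCGG, searched on both strands, occurred 2 times in cluster 1, 2 times in cluster 8, 3 times in cluster 9 and 1 time in CAMTA2, and 45.0% of all start regions held it. The letters CCAAT, also on both strands, occurred 3 times in cluster 1, 2 times in cluster 9, 1 time in CAMTA2 and 0 times in cluster 8, against 34.6% of all start regions with a match.

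The upstream-most CAMTA1 start, which is where the RefSeq gene begins, carried almost no ChIP reads in any group. Over the 10 distinct windows of cluster 1 no ChIP library held more than 3 reads, while the inputs held 15 to 52. The window with the most (ENST00000467404, chr1:6784518-6786518) held 1 and 2 ChIP reads in wild type 10% serum, 2 and 1 in wild type 0.1%, 3 in ΔLEO1 10% and 2 and 0 in ΔLEO1 0.1%. In CPM, which scales reads to the library total corrected by TMM factors, the mean over the 7 ChIP libraries was 0.627 ± 0.477 (SD, n = 7), with 15.1% of distinct windows below it, and the input mean was 4.48 ± 1.14 (SD, n = 8), above 72.0% of them. CAMTA1-DT, a transcript that runs the other way from the same promoter, had a ChIP mean of 0.566 CPM and 0 to 3 reads per library.

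The next 5 starts, 21534 to 88602 bp downstream, stood far above it in every library. In each of the 7 ChIP libraries the lowest of clusters 2 to 6 exceeded cluster 1, the smallest gap being in wild type 10% serum replicate B with 3.25 against 0.723 CPM. Cluster 5 (ENST00000470648, chr1:6852048-6854048) was the highest of the 12, with 15 and 23 reads in wild type 10% serum, 22 and 22 in wild type 0.1%, 21 in ΔLEO1 10% and 22 and 24 in ΔLEO1 0.1%. Cluster 2 (ENST00000486138, chr1:6805988-6807988) held 11 and 19, 21 and 24, 12, and 32 and 20 reads in the same order. Their means over the 7 libraries were 8.47 ± 1.83 and 7.59 ± 1.90 CPM (SD, n = 7), and at cluster 5 the groups overlapped, apart from the ΔLEO1 10% library, which was the highest.

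The table gives CAMTA1 no start between clusters 6 and 7, which lie 88602 and 878831 bp from the first. In the downstream group the levels were mixed. Clusters 7 and 8 were low and even, with means of 2.196 ± 0.530 and 2.03 ± 0.34 CPM, clusters 10 and 11 were at 5.57 ± 2.41 and 6.32 ± 1.53 CPM, and cluster 12 (ENST00000700449, chr1:7750306-7752306), the last, was at 1.47 ± 0.80 CPM (SD, n = 7 for each). Cluster 12 held 1 and 3 reads in wild type 10% serum, 6 and 2 in wild type 0.1%, 4 in ΔLEO1 10% and 4 and 6 in ΔLEO1 0.1%, beside 5 to 38 input reads. From highest to lowest the order was 5, 2, 3, 6, 11, 4, 10, 9, 7, 8, 12, 1, and each neighbouring pair in it overlapped in range over the libraries. Input differed less along the gene, from 1.995 CPM at cluster 9 to 4.88 CPM at cluster 4.

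**Figure D1:**
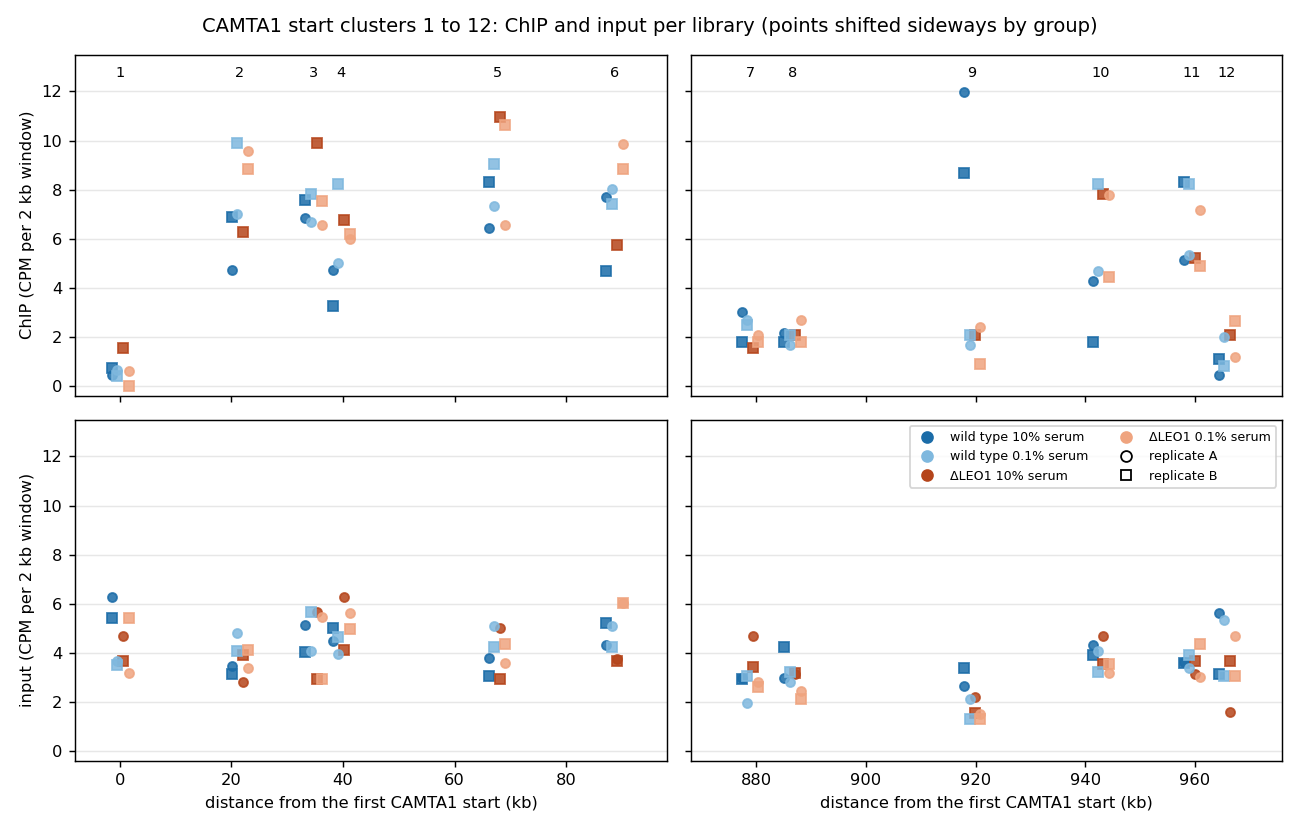
ChIP (upper panels) and input (lower panels) in CPM per 2000 bp window for the representative window of each CAMTA1 start cluster, against distance from the first start in kb; colours are groups, circles replicate A and squares replicate B. Cluster 1 stays at or below 1.56 CPM in ChIP, clusters 2 to 6 lie between 3.25 and 10.9 CPM, and at cluster 9 the wild type 10% serum libraries stand apart.

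Cluster 9 (ENST00000700424, chr1:7703838-7705838), the start for which CAMTA1 was picked, held 28 and 24 ChIP reads in wild type 10% serum, 5 and 5 in wild type 0.1%, 4 in ΔLEO1 10% and 8 and 2 in ΔLEO1 0.1%. Both wild type 10% serum libraries lay above the other 5. In CPM the group levels were 10.3 ± 2.34 (SD, n = 2), 1.86 ± 0.27 (SD, n = 2), 2.08 in the single ΔLEO1 10% library (exact Poisson 95% interval 0.568 to 5.34, counting error only) and 1.64 ± 1.06 (SD, n = 2). A second distinct window of the cluster shares these reads. The fitted log2 difference of 0.1% against 10% serum in wild type was -2.07 ± 0.36 (SE), while the CAMTA1 cluster with the next largest difference, cluster 10, lay on the other side at 0.92 ± 0.37 (SE). In that contrast 2 of the 21 distinct member windows tested, both of cluster 9, passed an adjusted p under 0.05, against 0.278% of all windows tested, and since this contrast chose the gene nothing is read from the count.

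The input at cluster 9 moved the same way by a smaller amount. It held 16 and 31 reads in wild type 10% serum, 15 and 9 in wild type 0.1%, 7 and 13 in ΔLEO1 10% and 8 and 11 in ΔLEO1 0.1%, which is 3.01 ± 0.51, 1.71 ± 0.57, 1.86 ± 0.47 and 1.40 ± 0.15 CPM (SD, n = 2 each). Both wild type 10% serum inputs were above the other 6, as in ChIP. The input log2 difference between serum conditions in wild type was -0.74 ± 0.34 (SE, adjusted p = 0.43, edgeR). With that difference taken off, the log2 ChIP difference at cluster 9 was -1.57 ± 0.60 (SE), nearer 0 than the -2.07 above. The part of the input in the ChIP difference was not tested further.

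**Figure D2:**
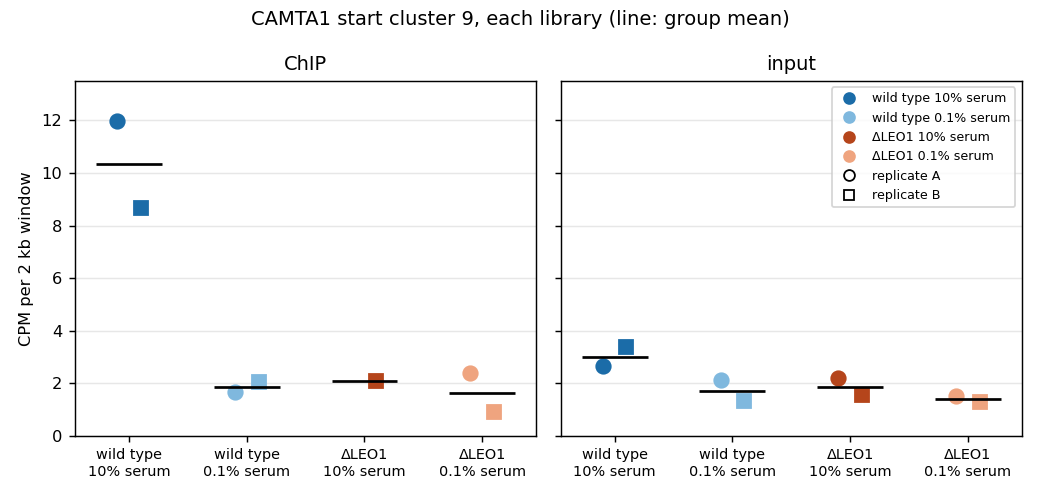
ChIP (left) and input (right) at CAMTA1 start cluster 9 in CPM per 2000 bp window, each library as a point and each group mean as a line. The wild type 10% serum ChIP libraries are at 11.98 and 8.67 CPM and the other 5 between 0.885 and 2.39, while the inputs run from 1.30 to 3.37.

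The other serum contrast and the genotype contrasts were tested, with edgeR over all 159524 windows that passed a minimum count. Of the 46 distinct member windows 21 passed it, 13 of CAMTA1 and 8 of CAMTA2, and these covered 8 CAMTA1 clusters and all 5 of CAMTA2; clusters 1, 7, 8 and 12 had too few ChIP reads in every group and were not tested. The contrasts share libraries with each other and with the one that chose the gene. Since ΔLEO1 in 10% serum had 1 ChIP library, a high count in a single library was enough to pass. CAMTA1 cluster 9 passed only through wild type 10% serum, and its wild-type libraries chose the gene. No p-value at its windows is read in any contrast, although they stay in the counts below. CAMTA2 clusters 1 and 2 passed only through ΔLEO1 0.1% replicate A and cluster 3 only through the ΔLEO1 10% library. The lack of a call at these clusters is no result. Shares of all windows are given at the adjusted threshold only, so counts at an unadjusted p under 0.05 have no background beside them. For ΔLEO1 against wild type in 0.1% serum 0 of 21 were called, with 2 at an unadjusted p under 0.05, against 0.33% of all windows called. For ΔLEO1 against wild type in 10% serum 0 were called, with 6 at an unadjusted p under 0.05, 2 of them the windows of cluster 9, against 0.0307%. For 0.1% against 10% serum in ΔLEO1 0 were called, with 0 at an unadjusted p under 0.05, against 0.0608%. DESeq2 called 0 windows of the whole table in each of the 3.

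At cluster 9, ΔLEO1 and wild type in 0.1% serum overlapped, with a log2 difference of -0.04 ± 0.46 (SE). It is given with no test because the wild-type libraries of both serum conditions chose the gene. In 10% serum the single ΔLEO1 library lay below both wild-type libraries, with a log2 difference of -1.94 ± 0.52 (SE), given with no test for the same reason. With the input difference taken off it was -1.41 ± 0.80 (SE). Between serum conditions within ΔLEO1 the difference was -0.16 ± 0.63 (SE), and the 4 reads of the 10% library lay between the 8 and 2 of the 0.1% libraries. It too is given with no test, since the window passed the filter on low counts only through wild type 10% serum. The difference in 0.1% serum and that within ΔLEO1 changed sign under some settings, with values in the closing part.

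Cluster 10 (ENST00000700446, chr1:7727293-7729293), 942839 bp from the first start, held 10 and 5 ChIP reads in wild type 10% serum, 14 and 20 in wild type 0.1%, 15 in ΔLEO1 10% and 26 and 10 in ΔLEO1 0.1%. Here wild type in 10% serum was the lowest group, at 3.04 ± 1.75 CPM (SD, n = 2), against 7.82 CPM in the ΔLEO1 10% library, and that log2 difference of 1.21 ± 0.47 (SE) did not pass (adjusted p = 0.42, edgeR). Its input stayed between 3.19 and 4.70 CPM.

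Summed over the gene, the 7 ChIP libraries spanned 53.1 to 68.8 CPM, and both ends of that range were wild type 0.1% serum. Over 13 CAMTA1 windows that do not overlap, the ChIP sum was 57.5 ± 2.15 CPM in wild type 10% serum, 60.9 ± 11.1 in wild type 0.1%, 62.5 in ΔLEO1 10% and 61.0 ± 2.4 in ΔLEO1 0.1% (SD, n = 2, 2, 1 and 2). These sums include the start that chose the gene, which held 10.3, 1.86, 2.08 and 1.64 CPM in the same order. ΔLEO1 exceeded wild type in 0.1% serum by 0.05 CPM, given with no test because the wild-type libraries chose that start. The exact permutation tests below are two-sided, and with 2 against 2 libraries their p cannot go below 0.333. The input sums in 0.1% serum differed by -0.805 CPM (exact permutation p = 0.667). Over 6 CAMTA2 windows that do not overlap, the ChIP sum was 19.2 ± 7.09 CPM in ΔLEO1 and 13.0 ± 5.64 in wild type 0.1% serum (SD, n = 2 each), a difference of 6.12 CPM (exact permutation p = 0.667) within overlapping groups.

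Set against input in the same group, the first start was depleted in 3 groups and cluster 5 was enriched in all 4. This ratio comes from 1 fit of 7 ChIP and 8 input libraries, whose scaling puts the middle of all windows near 0, so it is relative to the other windows. At the cluster 1 window named above the log2 ratio was -2.62 ± 0.49 (SE, adjusted p = 1.6e-06) in wild type 10% serum, -2.07 ± 0.52 (adjusted p = 0.00036) in wild type 0.1%, -2.72 ± 0.51 (adjusted p = 3.7e-06) in ΔLEO1 0.1% and -1.16 ± 0.67 (adjusted p = 0.18) in ΔLEO1 10%, by edgeR. All 10 windows of the cluster were called lower in the first 3 groups and 0 in ΔLEO1 10%. These calls at cluster 1 held under each setting run. Cluster 5 was called higher in all 4 groups, from 0.72 ± 0.29 in wild type 0.1% to 1.51 ± 0.41 in ΔLEO1 10% (SE). Cluster 2 ranged from 0.73 ± 0.48 to 1.13 ± 0.29 and was called in all groups but ΔLEO1 10%, and cluster 12, from -0.48 ± 0.66 to -1.93 ± 0.50, likewise. The cluster 12 calls did not all hold: in wild type 0.1% serum the adjusted p was 0.11 without ChIP replicate B and 0.14 without input replicate A, and in ΔLEO1 0.1% serum it was 0.43 without ChIP replicate A and 0.21 without input replicate A. Cluster 9 was at 1.63 ± 0.31 and 0.06 ± 0.47 in wild type 10% and 0.1% serum, given with no test because those libraries chose it. It was at 0.22 ± 0.70 and 0.24 ± 0.48 in ΔLEO1 10% and ΔLEO1 0.1%, not called.

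The remaining clusters with a call stood between these. Cluster 3 (ENST00000700418, chr1:6819203-6821203) held 16 and 21 ChIP reads in wild type 10% serum, 20 and 19 in wild type 0.1%, 19 in ΔLEO1 10% and 22 and 17 in ΔLEO1 0.1%, and its log2 ChIP over input was 0.50 to 1.30, called in all groups but wild type 0.1%. Cluster 6 (ENST00000467267, chr1:6873056-6875056) held 18 and 13, 24 and 18, 11, and 33 and 20 reads in that order and was called higher in wild type 0.1% only, at 0.66 ± 0.29 (SE). Cluster 11 (ENST00000490905, chr1:7743914-7745914) held 12 and 23, 16 and 20, 10, and 24 and 11 reads and was called higher in wild type at both serum levels, at 0.87 ± 0.32 and 0.77 ± 0.32 (SE) in 10% and 0.1%. Cluster 10 was called higher in ΔLEO1 0.1% only, at 0.78 ± 0.32 (SE). Clusters 4, 7 and 8 had no call at their representative window, which is the highest in ChIP. The other windows of cluster 8 were called lower in wild type 10% serum. At ENST00000700420 (chr1:7668759-7670759) ChIP held 3 and 4, 2 and 5, 2, and 2 and 2 reads in that order, beside 8 to 49 input reads. In wild type 0.1% and ΔLEO1 0.1% serum some windows outside clusters 1 and 12 were called lower too. Each call of enrichment at the representative windows other than cluster 9 was lost without some single library, except cluster 2 in ΔLEO1 0.1% serum. Without TMM the calls at clusters 6, 10 and 11 were lost, as were those at cluster 2 in wild type 10%, cluster 3 in wild type 10% and ΔLEO1 0.1%, and cluster 5 in wild type 0.1% serum, with adjusted p of 0.052 to 0.16. At cluster 5 the adjusted p was 0.11 in wild type 10% serum without ChIP replicate B, 0.26 in wild type 0.1% without ChIP replicate B, 0.25 in ΔLEO1 0.1% without ChIP replicate B and 0.096 in ΔLEO1 10% without input replicate B, by edgeR. At cluster 2 it was 0.47 and 0.27 in wild type 10% and 0.1% serum without ChIP replicate B. Being called in one group and not in another does not show that the groups differ, and those differences were not tested.

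Over all 46 distinct windows of both genes, more were called lower than higher. In wild type 10% serum 9 (19.6%) were higher and 27 (58.7%) lower, against 29.5% and 29.1% of all windows tested, and 2 of the 9 are those of cluster 9. In wild type 0.1% serum 7 (15.2%) were higher and 22 (47.8%) lower, against 25.7% and 27.9%. In ΔLEO1 10% serum 4 (8.7%) were higher and 5 (10.9%) lower, against 15.4% and 11.3%. In ΔLEO1 0.1% serum 6 (13.0%) were higher and 21 (45.7%) lower, against 27% and 28.7%. Since 10 of the windows overlap at the first CAMTA1 start and windows overlap within other clusters too, these counts repeat reads. In wild type 10% serum the calls lay in 8 CAMTA1 clusters and 4 of CAMTA2. Single libraries set some of these counts: wild type 10% serum fell from 36 to 22 called without ChIP replicate B, ΔLEO1 0.1% from 27 to 15 without ChIP replicate A and to 16 without input replicate B, and ΔLEO1 10% from 9 to 0 without input replicate B.

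**Figure D3:**
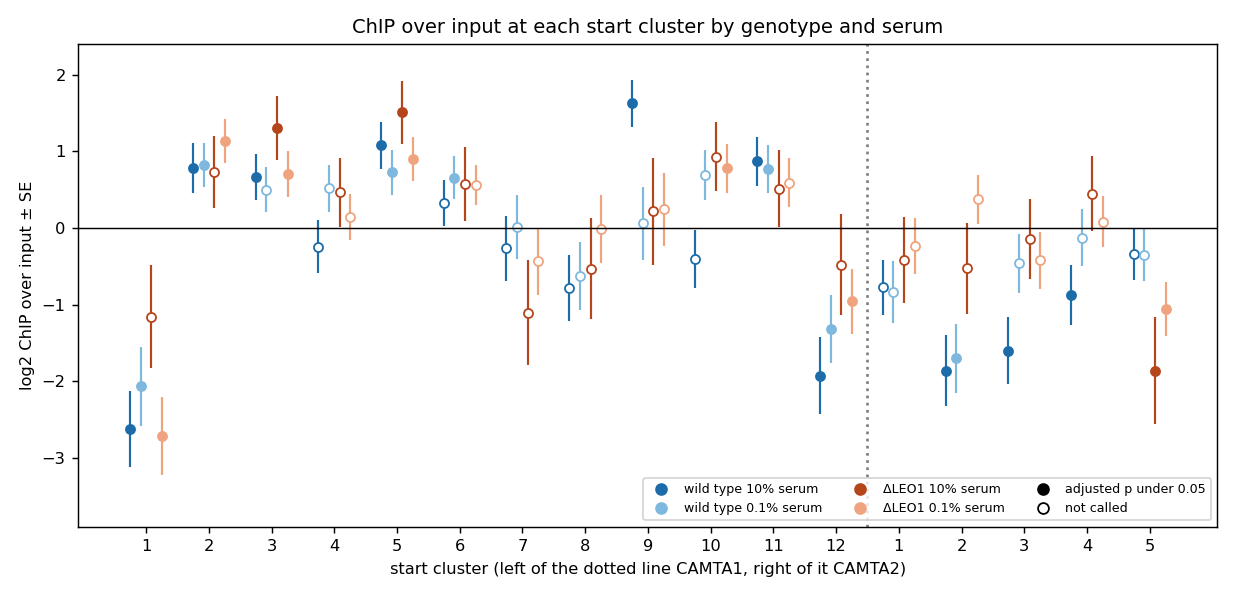
Log2 ChIP over input (vertical axis, points with SE bars) for the representative window of each start cluster of CAMTA1 and CAMTA2, in each group; filled points had an adjusted p under 0.05 in edgeR. CAMTA1 cluster 1 is the lowest point in all groups but ΔLEO1 10% serum, where CAMTA2 cluster 5 is lower, and clusters 2 and 5 of CAMTA1 are above 0 in all 4 groups. Cluster 9 is above 1 in wild type 10% serum only, and the wild-type groups chose it.

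The long stretch without a CAMTA1 start, where other genes have start windows, held 6 of the 7 peak regions, 151768 to 830109 bp from the first start, and peak 1 lay at 75659 bp. The table's annotation put 5 of the 7 on repeat elements (2 Alu, 2 simple repeats and 1 MIR) and 2 in an intron of CAMTA1, and for 3 it gave a start of LOC102725193 as the nearest; how reads that map to several places were treated is not given in the sources used here. Averaged over libraries, on the scale of TSS-window reads, their ChIP level was 7.36 to 11.1 CPM per kb, with the input at 1.71 to 2.98, a ratio of 3.14 to 6.53, where the median over all 16092 regions was 4.35.

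Peak 5 (chr1:7367501-7368794) was the highest, with 42 and 54 reads in wild type 10% serum, 38 and 28 in wild type 0.1%, 30 in ΔLEO1 10% and 46 and 22 in ΔLEO1 0.1%. It overlaps the start window of CAMTA1-IT1, a transcript inside a CAMTA1 intron (ENST00000427317, chr1:7367942-7369942), which held 39 and 60, 44 and 43, 40, and 49 and 27 reads in the same order. At 16.9 CPM that window exceeded 99.9% of distinct windows and was the highest in the gene. The antisense starts nearby were lower, CAMTA1-AS1 at 6.80 CPM and the higher window of CAMTA1-AS2 at 2.89 CPM.

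No CAMTA1 peak was called in a tested contrast by edgeR. For ΔLEO1 against wild type in 0.1% serum 0 of 7 were called, with 1 at an unadjusted p under 0.05, against 0.0621% of regions. For ΔLEO1 against wild type in 10% serum and for serum in ΔLEO1, 0 of 7 were called, with 0 at an unadjusted p under 0.05, against 0% of regions in both. DESeq2 called 0 regions in each. The one with the lowest p was peak 6 (chr1:7498948-7499980), with 40 and 32 reads in wild type 0.1% serum and 23 and 14 in ΔLEO1 0.1%, a log2 difference of -0.64 ± 0.31 (SE, adjusted p = 0.58, edgeR). In CPM per kb it was 12.9 ± 0.13 against 6.33 ± 0.46 (SD, n = 2 each), with no overlap of the groups. These levels are scaled to reads over TSS windows and the fit to reads over peak regions. The gap in CPM per kb is therefore wider than the fitted difference, and part of it comes from the scaling. The 7 log2 differences in that contrast ran from -0.64 to 0.64.

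**Figure D4:**
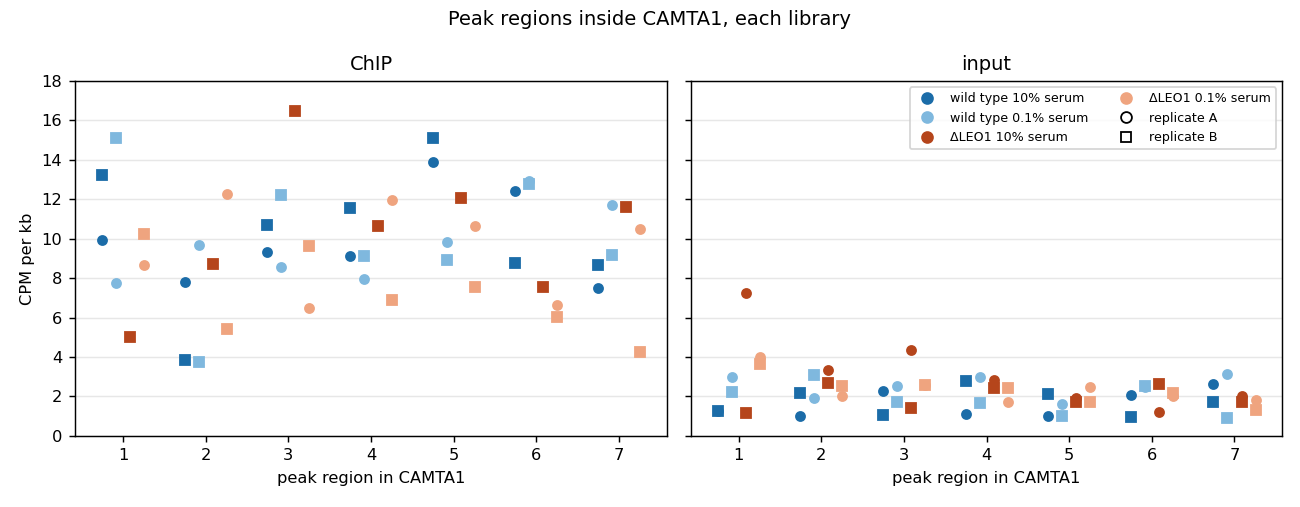
ChIP (left) and input (right) in CPM per kb at the 7 peak regions inside CAMTA1, each library a point. ChIP lies between 3.77 and 16.5 CPM per kb and the inputs mostly below it, and at peak 6 both ΔLEO1 0.1% serum points are below both wild type 0.1% points.

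At the representative windows, CAMTA2 covered a narrower range than CAMTA1, above its 4 lowest clusters and below its others. The 5 cluster means were 2.44 to 3.64 CPM in ChIP, all overlapping in range, and 4.00 to 5.11 CPM in input. The mean of 4.25 CPM at CAMTA1 cluster 9 comes mostly from the wild type 10% serum libraries that chose it. Representative windows are the highest of their cluster, and other CAMTA2 windows went down to 1.33 CPM (ENST00000414043), with its RefSeq start at 1.63 CPM. At its RefSeq start (ENST00000348066, chr17:4986675-4988675) ChIP held 3 and 10 reads in wild type 10% serum, 3 and 1 in wild type 0.1%, 3 in ΔLEO1 10% and 3 and 6 in ΔLEO1 0.1%, beside 12 to 50 input reads. Log2 ChIP over input there was -1.10 in wild type 10% serum (adjusted p = 0.0076), -2.12 in wild type 0.1% (adjusted p = 8e-05), -1.21 in ΔLEO1 0.1% (adjusted p = 0.0095) and -1.40 in ΔLEO1 10% (adjusted p = 0.092), by edgeR. Without ChIP replicate A the adjusted p was 0.18 in wild type 10% serum and 0.3 in ΔLEO1 0.1%, and without input replicate B it was 0.12 in the latter. Of the 16 windows 13, 9, 8 and 4 were called lower and 0 higher in wild type 10%, wild type 0.1%, ΔLEO1 0.1% and ΔLEO1 10% serum, where 29.1%, 27.9%, 28.7% and 11.3% of all windows were called lower and 29.5%, 25.7%, 27% and 15.4% higher. Windows of the same cluster overlap, so these counts repeat reads. The calls lay in 4, 3, 3 and 2 of the 5 clusters in the same order. At the representative windows, the call of cluster 3 in wild type 10% serum was lost without ChIP replicate B (log2 ratio -1.14). That of cluster 4 in wild type 10% serum was lost without each of its own libraries in turn. Its log2 ratio was then -1.02 and -0.83 without ChIP A and B, and -0.86 and -0.9 without input A and B. That of cluster 5 was lost in ΔLEO1 0.1% without ChIP replicate A (-1.15) or input replicate B (-0.88). In ΔLEO1 10% it was lost without input replicate B (-1.4).

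The inner starts of CAMTA2 changed place from library to library. Cluster 4 (ENST00000576872, chr17:4971793-4973793), the highest by mean, held 6 and 6 ChIP reads in wild type 10% serum, 13 and 5 in wild type 0.1%, 11 in ΔLEO1 10% and 17 and 8 in ΔLEO1 0.1%. Cluster 5 (ENST00000574442, chr17:4968415-4970415) held 13 and 8, 15 and 6, 2, and 9 and 6, and cluster 3 (ENST00000575192, chr17:4976200-4978200) held 5 and 2, 11 and 4, 8, and 12 and 5. In 10% serum the log2 genotype difference was 1.06 ± 0.53 (SE, adjusted p = 0.58) at cluster 4 and -1.43 ± 0.68 (SE, adjusted p = 0.55) at cluster 5, by edgeR, so the nearest starts lay on opposite sides of 0 and neither passed.

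The CAMTA2 windows that came nearest to a genotype call were those of cluster 2, a start inside the gene. ENST00000571831 (chr17:4982760-4984760) held 2 and 5 ChIP reads in wild type 10% serum, 3 and 1 in wild type 0.1%, 6 in ΔLEO1 10% and 22 and 6 in ΔLEO1 0.1%. The overlapping ENST00000575580 held 2 and 3, 4 and 2, 5, and 23 and 8. Both ΔLEO1 0.1% serum libraries lay above both wild-type ones, and replicate A was far above replicate B. Both windows passed the filter on low counts only through that library, so nothing is supported by their test. Their log2 differences in 0.1% serum were 1.90 ± 0.52 (SE, adjusted p = 0.064) and 1.72 ± 0.50 (SE, adjusted p = 0.085) by edgeR, which did not pass. Both were called with no filter (adjusted p = 0.023 and 0.039) and with the totals of the peak table as library sizes (adjusted p = 0.016 and 0.021), where the median of all windows stood at 0.26 (log2). Over the other settings the adjusted p ran up to 1.0 (DESeq2), and without wild type 0.1% serum replicate A it was 0.32 and 0.39. Input at ENST00000575580 was 3.98 ± 0.05 CPM in ΔLEO1 0.1% and 4.44 ± 0.10 in wild type 0.1% serum (SD, n = 2 each). In ChIP over input the window was called lower in wild type at both serum levels, at -1.86 ± 0.46 and -1.70 ± 0.45 in 10% and 0.1%, and not called in ΔLEO1, at -0.53 ± 0.60 and 0.37 ± 0.32 (SE); the genotype difference with input taken off was 2.07 ± 0.56 (SE, adjusted p = 0.25).

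**Figure D5:**
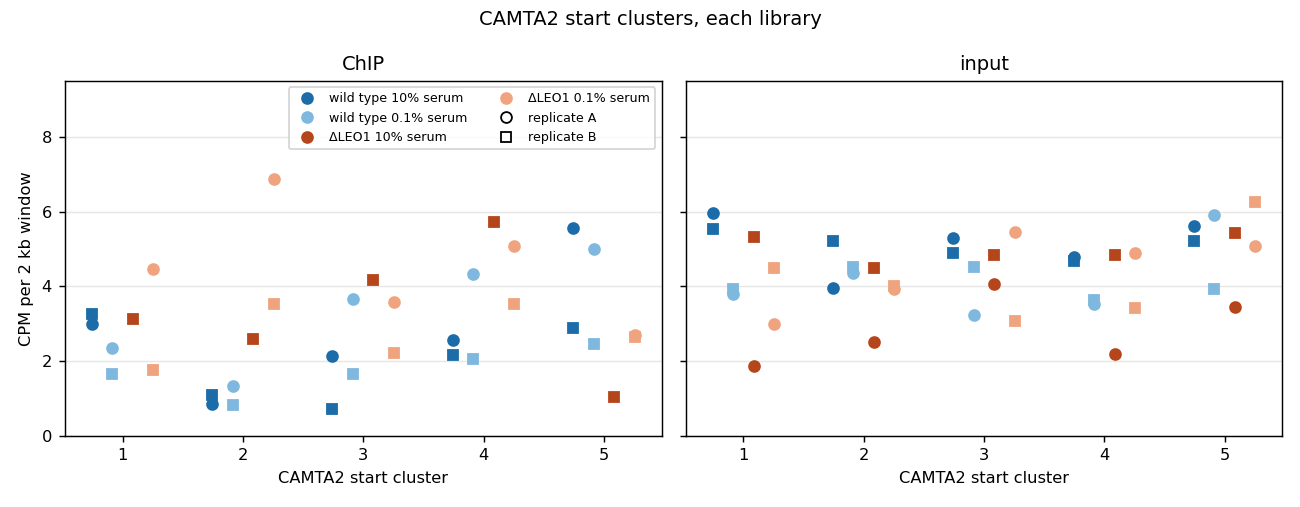
ChIP (left) and input (right) in CPM per 2000 bp window at the representative window of each CAMTA2 start cluster, each library a point. At cluster 2 the ΔLEO1 0.1% serum libraries are at 6.87 and 3.54 CPM in ChIP and the wild type libraries at or below 1.34.

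No input window of either gene was called. By edgeR over 238006 windows, 0 of the 46 distinct member windows were called for ΔLEO1 against wild type in 0.1% serum (0 at an unadjusted p under 0.05, 0% of all windows called), in 10% serum (9 at an unadjusted p under 0.05, 0.0021% called), for serum in ΔLEO1 (1 at an unadjusted p under 0.05, 0% called) and for serum in wild type (15 at an unadjusted p under 0.05, 0.0235% called). DESeq2 called 0 windows of the whole table in all 4. The 15 were the 10 windows of CAMTA1 cluster 1, the 2 of cluster 9 and 3 of CAMTA2 cluster 1, and all had fewer input reads in 0.1% serum, with log2 differences of -0.53 to -0.77. Windows of the same cluster overlap, so this count repeats reads. The cluster 1 window had 6.29 and 5.43 CPM in wild type 10% serum inputs and 3.66 and 3.49 in wild type 0.1%.

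Among genes outside CAMTA1, those whose ChIP reads followed cluster 9 most closely over the 7 libraries were SSX3, LINC01206, ANK1, FAM90A12P and RNU1-65P, with Pearson r of log2(CPM + 0.5) of 0.988, 0.984, 0.982, 0.980 and 0.980 among 87520 windows, 488 of which had r of 0.9 or more. These values are a description over 7 libraries that share their depth. The reads at LINC01206, a long noncoding RNA, were 33 and 33 in wild type 10% serum, 21 and 19 in wild type 0.1%, 13 in ΔLEO1 10% and 25 and 14 in ΔLEO1 0.1%, a shallower pattern than at CAMTA1. SSX3, FAM90A12P and RNU1-65P have near-identical copies elsewhere, so their reads are uncertain.

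Genes known to work with the CAMTA proteins were examined at 1 start window each, the one with the highest ChIP mean. The 15 genes were CALM2 and CALM3, which encode calmodulin, the class II deacetylases HDAC4, HDAC5, HDAC7 and HDAC9, the kinases that export them (PRKCE, PRKD1, PRKD2, PRKD3), the cardiac factor NKX2-5 with the heart genes NPPA, NPPB and MYH7, and WWTR1. Of these 14 were tested, HDAC5 with 4 to 11 reads per library falling short, and 0 were called in either direction in the 4 contrasts by edgeR, with 1, 2, 0 and 1 at an unadjusted p under 0.05 for genotype in 0.1%, genotype in 10%, serum in ΔLEO1 and serum in wild type. With 0.33%, 0.0307%, 0.0608% and 0.278% of all windows called in these contrasts, a count of 0 is near the background and is no result about the list, and the same holds for the neighbours. The median log2 difference for genotype in 0.1% serum was -0.08, against 0.00 over all windows. Levels ran from 2.72 CPM at HDAC5 and 2.97 at CALM3 to 11.6 at PRKD1, a kinase that phosphorylates class II deacetylases, and 12.7 at NPPB, which encodes a natriuretic peptide made in the heart.

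The genes around the pair were also taken at 1 window each. Within 300 kb of CAMTA1 22 other genes had windows, 19 were tested and 0 were called in the 4 contrasts by edgeR, with 3 at an unadjusted p under 0.05 in each. Within 300 kb of CAMTA2 39 had windows, 33 were tested and 0 were called, with 8, 3, 2 and 4 at an unadjusted p under 0.05 in the order given above. The highest ChIP levels were 16.9 CPM at CAMTA1-IT1 on one side and 14.8 CPM at ZFP3-DT on the other, and the lowest were 0.566 CPM at CAMTA1-DT and 0.518 CPM at RN7SL784P, the latter followed on the CAMTA2 side by 0.774 CPM at PFN1, which encodes the actin-binding protein profilin.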

How the data were processed

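ChIP and input DNA of 16 libraries were sequenced, in 8 groups of 2. The authors deposited whole-number read counts without scaling, in a table of 2000 bp windows centred on annotated starts and a table of merged peak regions. The submitters' processing notes name bcl2fastq 2.20.0.422, STAR 2.7.10a, HOMER, hg38 and dm6; the libraries on which peaks were called and the treatment of duplicate reads are not given in the sources used here, and the spiked-in fly chromatin was not used here. A change in total H3K9me2 is therefore not visible in these scaled values. Counts were tested with edgeR 4.0.16 (R 4.3.3; quasi-likelihood F-test, two-sided, filterByExpr with minimum count 10, TMM, prior count 2, Benjamini-Hochberg adjustment over the whole table, threshold 0.05), in 1 fit of 7 ChIP libraries, 1 of 8 inputs, and 1 of all 15 for ChIP over input. SEs come from the F statistic, and the code was tested on simulated counts. Each start cluster is represented by its distinct window with the highest mean ChIP CPM. Members and gene lists were chosen with earlier results of these data known. Clusters were described in full if they chose the gene, had the 2 highest or 2 lowest ChIP means, lay furthest upstream or held a call; like genes were the 5 with the highest r, with a mean count of at least 10, 1 window a gene; neighbours within 300 kb were listed whole, as were partners apart from an item that is not reported here. The alternatives were no filter, no TMM, totals of the other table, DESeq2 1.42.0, the replicate letter as a block, 8 ChIP libraries, input taken off, distinct windows and each library left out.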

Additional observations from a re-analysis of the deposited data

Results flagged for a closer look

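Scaled to reads over TSS windows, at 4 places every wild-type ChIP library moved one way with serum and the ΔLEO1 libraries moved the other way. This difference was not tested, because the wild-type contrast chose the gene, and ΔLEO1 in 10% serum is 1 library at each. At CAMTA1 cluster 4 (ENST00000482934, chr1:6824110-6826110), the log2 ratio of mean CPM + 0.5 for 0.1% against 10% serum was 0.67 in wild type and -0.14 in ΔLEO1, from 11 and 9 reads against 15 and 20, and from 13 against 20 and 14. At CAMTA1 cluster 10 it was 0.97 in wild type and -0.33 in ΔLEO1. At peak 6, in CPM per kb, it was 0.27 in wild type and -0.24 in ΔLEO1, and at peak 7 (chr1:7615250-7615877) it was 0.35 and -0.63. The peak tests used library sizes from the peak regions instead, 221084 in ΔLEO1 10% and 338147 and 215200 in ΔLEO1 0.1%. With those sizes ΔLEO1 0.1% replicate A lay slightly above the 10% library at both peaks. The opposite direction at the peaks therefore depends on the scaling, and so does that at the windows. With the same sizes both ΔLEO1 0.1% libraries lay above the 10% library at cluster 4, from 20 and 14 reads against 13. At cluster 10 replicate A lay above it and replicate B below, from 26 and 10 reads against 15.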

How the results depend on the processing

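ChIP differences at the lowest starts were not detectable at this depth, and 25 of 46 distinct windows were not tested in ChIP. Member counts called in tested ChIP and input contrasts stayed at 0 under the alternatives run, except ΔLEO1 against wild type in 0.1% serum, where 2 windows of CAMTA2 cluster 2 were called with no filter and 2 with the totals of the other table. Without each library in turn these counts were 0 to 0 in every such contrast. In wild-type serum, the contrast that chose the gene, the 2 called became 0 with DESeq2 and 0 with the input difference taken off, and ran from 0 to 2 without single libraries (0 without wild type 10% serum replicate A or wild type 0.1% serum replicate A). For ChIP over input, leaving out single libraries gave 15 to 30 in ΔLEO1 0.1%, 0 to 12 in ΔLEO1 10%, 21 to 31 in wild type 0.1% and 22 to 37 in wild type 10% serum. The summed CAMTA1 difference in 0.1% serum ran from -7.78 to 7.88 CPM without single libraries. The cause of these changes was not tested.

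Values near 0 at cluster 9 changed sign. For genotype in 0.1% serum the log2 difference was 0.18 with totals of the other table and 0.18 with input taken off, and -0.64 to 0.27 without single libraries; for serum in ΔLEO1 it was 0.012, 0.025 and -0.78 to 0.12. ChIP over input there was -0.041 in wild type 0.1% serum without TMM, and without single libraries -0.18 to 0.36 in that group, -0.58 to 0.53 in ΔLEO1 0.1% and -0.071 to 0.33 in ΔLEO1 10%. Over the whole TSS table, the ChIP calls depended on single libraries: 526 fell to 47 for genotype in 0.1% serum and 443 to 7 for serum in wild type, both without wild type 0.1% serum replicate A, 97 fell to 29 for serum in ΔLEO1 without ΔLEO1 0.1% serum replicate B, and 49 to 24 for genotype in 10% serum without wild type 10% serum replicate A. With 8 ChIP libraries they were 0, 5, 0 and 0 in that order, with DESeq2 0 in each, with input taken off 27, 0, 0 and 14, and 2209 for genotype in 0.1% serum with library sizes from the peak regions, which moved the median of all windows to 0.26 (log2).

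With the replicate letter as a block, 0 member windows and 0 peaks were called in each tested ChIP contrast and 0 in each input contrast, and ChIP over input called 27, 9, 29 and 36, as without it; the whole-table count for serum in wild-type input was 173 against 56 and no member call changed. Deviations of same-letter ChIP libraries correlated at 0.002 to 0.016 over 159524 windows (inputs 0.016 to 0.098), so they are not treated as pairs.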
